A study of Mus musculus with 12 samples.

Results

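The genes described here are 43 genes of DNA crosslink repair, of repair of breaks in both DNA strands and of mismatch repair. They were chosen by name, with earlier results of these data known. Each is 1 row of a count table of 23420 mouse genes. They were divided by textbook role into 9 genes of the Fanconi pathway, 16 of homologous recombination, 6 of end joining, 3 of mismatch repair, 7 of break sensing and the checkpoint, and 2 of single-strand break repair. Both groups were sorted from the same 6 FVB mice, whose transgenes were K5-tTA (+/-); tetO-H2B-GFP (+/-). In this system a keratin 5 promoter drives a tetracycline transactivator in basal keratinocytes, the transactivator drives a green histone, and doxycycline turns the reporter off, so that the label is diluted as cells divide. After 14 days of doxycycline, cells of the hard palate epithelium that stained for CD49f (integrin α6) were sorted, and each mouse gave a GFP-HI library, labelled by the submitters as infrequently dividing, and a GFP-LO library, labelled as frequently dividing. Mice B1M, B3M, B4M, B5M and B7M were 49 days old and mouse B7F 71 days, so the age of B7F and any other trait of that mouse cannot be told apart. Each library pools RNA of 200 to 1000 cells, and nothing in the libraries counts the divisions of a cell.

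Each class acts on a different kind of damage. The Fanconi core complex recognises crosslinked DNA at stalled replication forks and attaches ubiquitin to the Fancd2 and Fanci proteins, which opens the way to cutting out the crosslink. Homologous recombination copies lost sequence from the sister chromatid and is used mainly in the S and G2 phases, when a sister is present, whereas end joining ligates broken ends directly and works through most of the cell cycle. Mismatch repair corrects copying errors soon after the fork has passed. Many Fanconi, recombination and checkpoint genes are transcribed most in cycling cells, while the Ku and DNA-dependent kinase genes are transcribed in most cell states.

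Libraries held 6678444 to 10547665 counts, of which the pre-ribosomal RNA gene Rn45s took 31.45% to 59.76%, and 4811 to 9367 counts fell on the 43 repair genes. All 43 were tested, and in 11 of the 12 libraries all 43 had at least 1 count. The exception was the GFP-HI library of B1M, with 40, which also detected the fewest genes of all (12312, against up to 19023 in the GFP-HI library of B7F). That library had the highest or the lowest GFP-HI value for 76.7% of the repair genes and for 58.3% of all genes tested. Fits without B1M are given beside many of the genes, not all, and its part in the results was otherwise not tested. Basal keratinocyte markers were high in every library, with summed levels of 13812 to 22527 CPM (the depth-scaled count of a gene, with TMM factors for library composition) in GFP-HI and 16402 to 23401 CPM in GFP-LO for 6 genes, 0 of them called. Krt5 and Krt14, the keratins of basal cells, had at least 4350 and 6393 CPM, Trp63 at least 554 and Itga6, which encodes the sorted CD49f, at least 450. The 7 immune, 5 endothelial, 4 melanocyte and 4 Schwann cell markers summed to at most 24.2, 5.41, 6.41 and 2.66 CPM in any library. The 7 fibroblast markers summed to 253 to 469 CPM in GFP-HI (GFP-LO 356 to 617 CPM), lower in GFP-HI in 6 of 6 mice. Nearly all of that was Dcn, which was called lower, while Col1a1 and Col1a2, with positive values that were not called (log2 1.55 and 1.11), reached at most 5.40 CPM, and Lum and Pdgfra at most 0.922 and 0.424 CPM. The 7 suprabasal markers summed to 439 to 1616 CPM in GFP-HI (GFP-LO 337 to 1280 CPM), with 0 of the 5 tested called.

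No repair gene passed the test between the fractions. Of the 43 genes, 0 were called higher and 0 lower in GFP-HI (edgeR's quasi-likelihood test with mouse as a block, adjusted p under 0.05 over all 11719 genes tested), where the same rule called 0.469% of all genes higher and 0.0597% lower. DESeq2 called 0 of them in either direction too, where it called 0.863% of all genes higher and 0.193% lower. At an unadjusted p under 0.05, 5 repair genes had higher values, Fanca, Fancd2, Fanci, Brca1 and Blm, which is 11.6% of the genes against 4.3% of all genes, and 0 had lower values, against 2.94% of all genes. Without B1M there were 5 with higher values, Fanca, Fancd2, Blm, Brip1 and Rad51b, and 1 with a lower value, Prkdc, where 5.16% and 3.27% of all genes had such values. The median log2 fold change (GFP-HI over GFP-LO) was 0.08 over the 43 genes, 25 positive (58.1%) and 18 negative, beside −0.02 over all genes tested, of which 46.9% were positive. In sorted pools, fewer cells expressing a gene and less RNA per cell cannot be told apart.

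**Figure D1:**
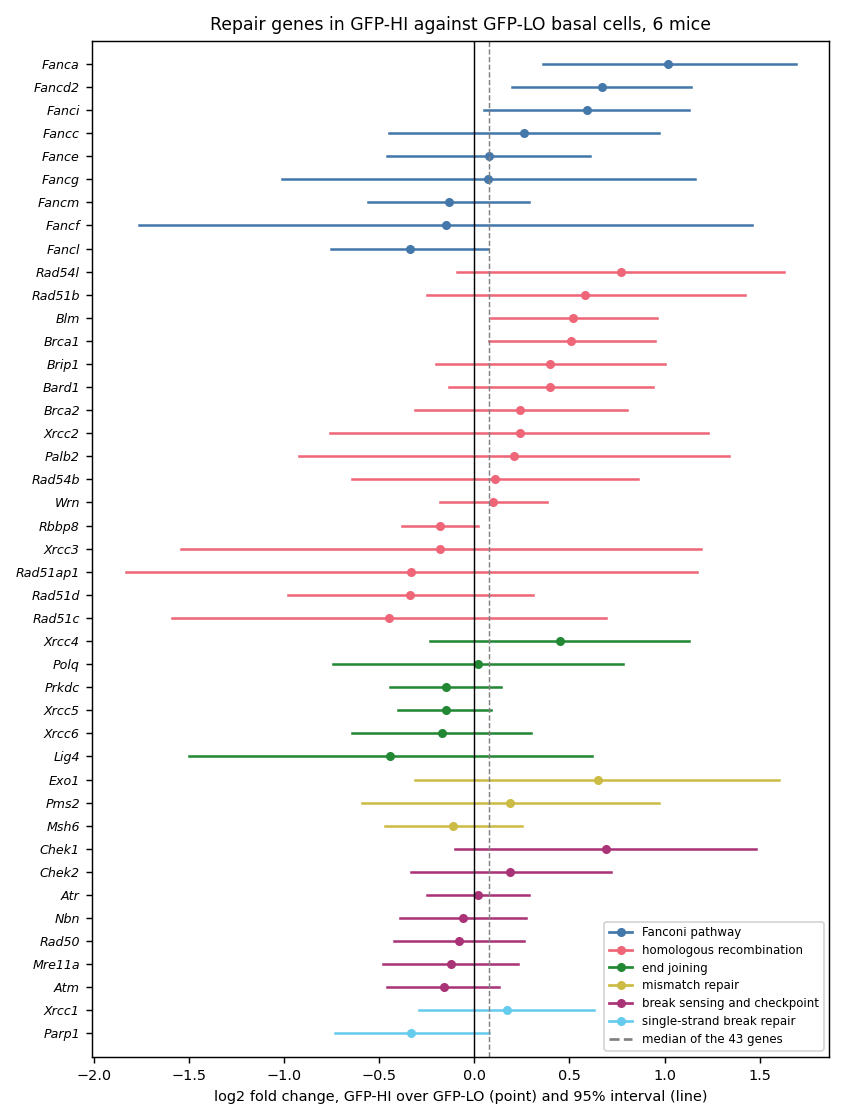
Fitted log2 fold change of each repair gene, GFP-HI over GFP-LO (horizontal axis), with its 95% interval from 6 mice, coloured by class and ordered by value within a class. The intervals of 5 genes, Fanca, Fancd2, Fanci, Brca1 and Blm, lie above 0 without adjustment for the number of genes, and the dashed line marks the median of 0.08.

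The class medians ran from −0.15 to 0.22, and whether the classes differ was not tested. Between mice, the median of a class had an SD of 0.37 for the Fanconi pathway and for recombination and 0.51 for mismatch repair. That SD was 0.31 for end joining, 0.29 for single-strand break repair and 0.10 for break sensing. Homologous recombination had a median log2 fold change of 0.22 with 11 of 16 genes positive, mismatch repair 0.19 with 2 of 3, and the Fanconi pathway 0.08 with 6 of 9. Break sensing and the checkpoint had −0.06 with 3 of 7 positive, single-strand break repair −0.08 with 1 of 2, and end joining −0.15 with 2 of 6. Without B1M the median was 0.33 for the Fanconi pathway, 0.07 for mismatch repair and 0.05 for break sensing. As a sum over its genes, the Fanconi pathway reached 85.8 to 131 CPM in GFP-HI (GFP-LO 70.1 to 106 CPM), and it was higher in GFP-HI in 5 of 6 mice. In B1M, however, the median difference over its genes was −0.29, and Fancd2 and Fanci gave 73.2 CPM of the GFP-HI sum (GFP-LO 21.9 CPM). The sum of the other 7 Fanconi genes was higher in GFP-HI in 4 of 6 mice. The recombination sum was 188 to 286 CPM against 218 to 252 CPM, higher in 5 of 6 mice, with B4M the exception, although in B1M the median difference over its genes was −0.59. The end joining sum went the other way, at 133 to 156 CPM in GFP-HI (GFP-LO 137 to 175 CPM), higher in 1 of 6 mice, B1M. Most of it came from Prkdc and Xrcc5, with GFP-HI means of 70.3 and 39.9 CPM, and over the 6 genes the median difference was positive in 3 of 6 mice. The ranges of the groups overlap in every class. These class values are descriptions, since the genes and classes were chosen with earlier results known, and no class was tested as a whole.

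**Figure D2:**
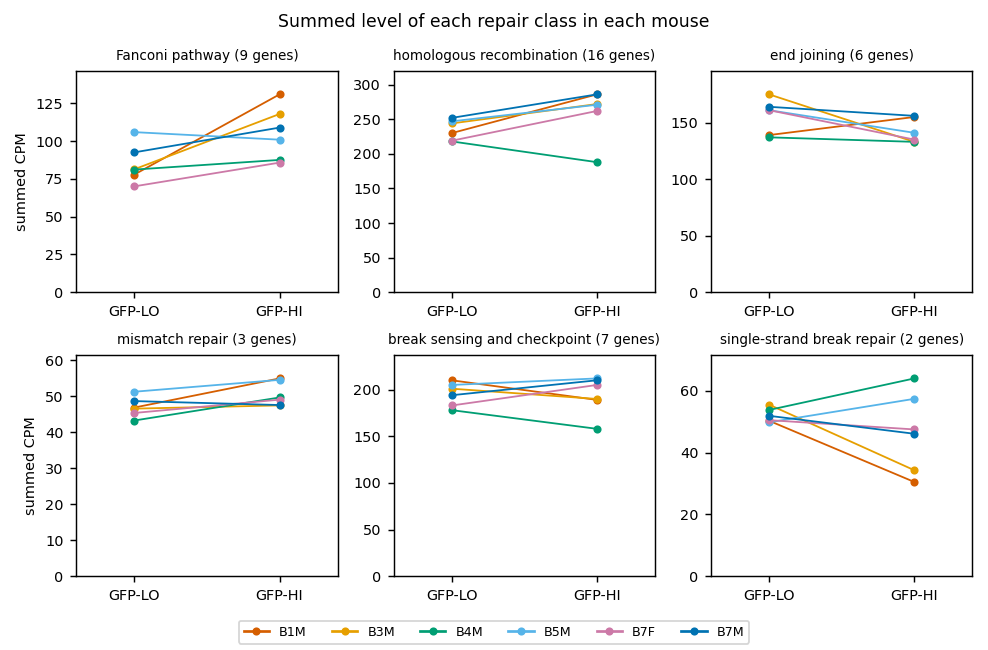
Summed CPM of the genes of each repair class (vertical axis, from 0) in the GFP-LO and GFP-HI library of each mouse, joined by a line per mouse. Fanconi lines slope upward in every mouse but B5M, and end joining lines downward in every mouse but B1M.

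Levels within the group spread widely. Per kilobase of exon, the mean over 12 libraries ran from 0.756 RPKM (CPM per kilobase) for Palb2 to 23.9 RPKM for Rbbp8, with a median of 2.4 RPKM beside 6.42 RPKM over all genes tested. Rbbp8, the resection factor CtIP, ranked above 85.8% of all genes tested and Xrcc5, a subunit of the Ku ring, at 16.5 RPKM above 78.6%. Next came Nbn (9.75 RPKM), Parp1 (9.74), Msh6 (8.33), Rad50 (8.22) and Fancl (8.17), which made 7 genes above the median of all genes. The lowest after Palb2 were Fancf (0.769 RPKM), Exo1 (0.809), Rad54b (0.812), Polq (0.877) and Rad51d (0.946). By class, the median was 1.97 RPKM for the Fanconi pathway, 1.99 for recombination, 2.74 for mismatch repair, 4.95 for break sensing and 5.24 for end joining. Rad54b shares 58.5% of its exonic length with Fsbp on the same strand, so its value is uncertain. Another 6 genes share exonic bases with a gene on the opposite strand, among them Fancl with Vrk2 (21.7%), Fanca with Zfp276 (17.1%) and Fanci with Polg (8.6%), and reads of such partners cannot be told apart unless strand was used in counting, which is not given in the sources used here.

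**Figure D3:**
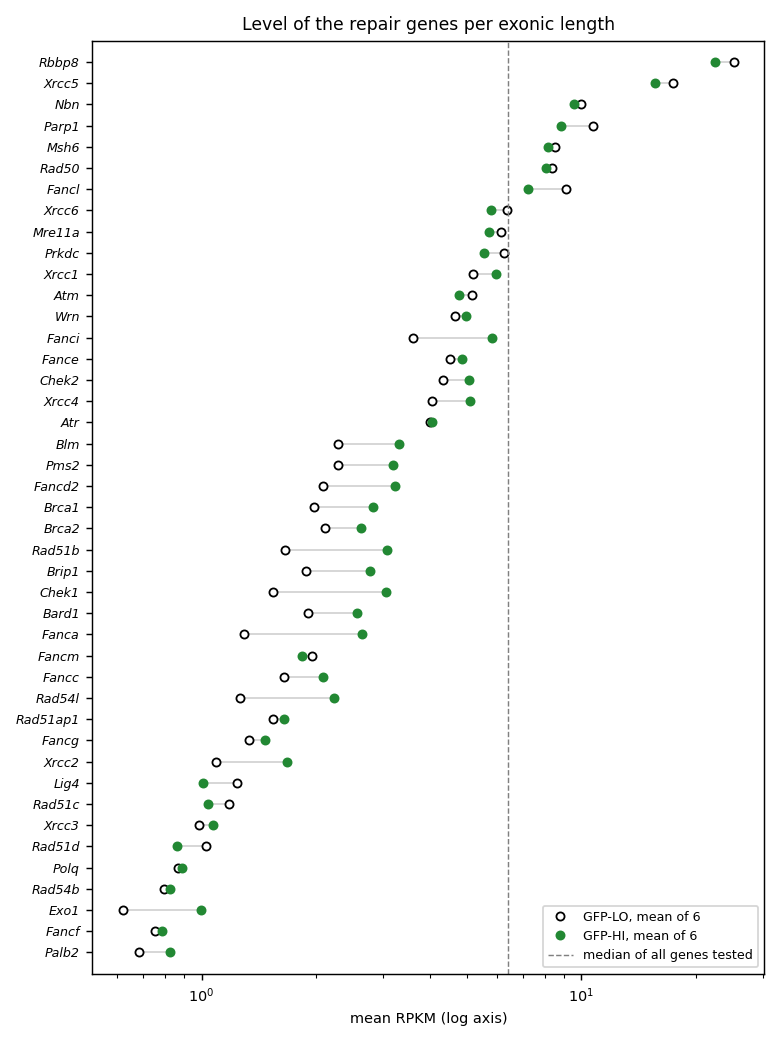
Mean RPKM of each repair gene on a log axis, with open circles for GFP-LO and filled circles for GFP-HI (6 libraries each). The 7 genes to the right of the dashed line, the median of 6.42 RPKM over all genes tested, all have the filled circle on the left, and Fanca, Chek1 and Rad51b show wide gaps in the other direction.

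The windows at the starts of these genes are of interest because E2F factors, which act at the start of S phase, are known to bind words such as TTTCCCGC, TTTGGCGC, TTTCGCGC and TTTGCCGC. RefSeq windows (GRCm38.p6, 250 bases before to 50 after the gene start) were at hand for 33 of the 43 genes, not for Nbn, Rbbp8, Xrcc2, Rad54b, Wrn, Fancd2, Rad50, Prkdc, Rad51d and Exo1. On either strand, 7 of the 33 genes (21.2%) held at least 1 of these words, Bard1, Brca2, Chek2, Fancg, Msh6, Rad51c and Xrcc6, compared with 4.95% of 8628 tested genes that have a window and 2.6% of all 27025 genes with one. Among 16 S phase genes, 6 of 12 with a window held one, and among 16 mitosis genes 1 of 13 (7.69%). Of 49 other genes of the same repair pathways, 40 had a window, and 7 of those (17.5%) held a match. The 5 windows with the whole match before the start are shown as the 250 bases up to the start, 5′ to 3′ on the gene's strand, with the match in capitals, and Fanca, the gene with the largest fold change, is shown as one without a match:
Brca2, chr5:150522371-150522620, plus strand: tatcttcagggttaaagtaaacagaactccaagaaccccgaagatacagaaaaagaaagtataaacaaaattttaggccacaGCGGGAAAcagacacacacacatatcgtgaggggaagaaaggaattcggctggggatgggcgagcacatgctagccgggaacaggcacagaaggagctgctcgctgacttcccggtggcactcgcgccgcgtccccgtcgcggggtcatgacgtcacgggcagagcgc
Bard1, chr1:71102973-71103222, minus strand: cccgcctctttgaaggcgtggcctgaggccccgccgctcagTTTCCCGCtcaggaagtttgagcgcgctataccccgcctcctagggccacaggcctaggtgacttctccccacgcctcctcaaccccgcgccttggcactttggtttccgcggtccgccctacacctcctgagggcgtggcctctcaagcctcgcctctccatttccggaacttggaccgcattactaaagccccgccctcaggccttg
Fancg, chr4:43010302-43010551, minus strand: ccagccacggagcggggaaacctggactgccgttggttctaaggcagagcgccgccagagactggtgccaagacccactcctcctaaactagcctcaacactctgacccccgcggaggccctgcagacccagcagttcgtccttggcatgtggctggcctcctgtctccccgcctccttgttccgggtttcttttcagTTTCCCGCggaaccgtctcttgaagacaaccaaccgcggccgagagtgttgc
Chek2, chr5:110839733-110839982, plus strand: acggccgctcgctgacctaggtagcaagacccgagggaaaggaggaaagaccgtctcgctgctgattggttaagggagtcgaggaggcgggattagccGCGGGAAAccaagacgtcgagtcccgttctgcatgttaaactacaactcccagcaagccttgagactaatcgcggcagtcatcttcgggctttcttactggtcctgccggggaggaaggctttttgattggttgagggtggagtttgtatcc
Xrcc6, chr15:82016119-82016368, plus strand: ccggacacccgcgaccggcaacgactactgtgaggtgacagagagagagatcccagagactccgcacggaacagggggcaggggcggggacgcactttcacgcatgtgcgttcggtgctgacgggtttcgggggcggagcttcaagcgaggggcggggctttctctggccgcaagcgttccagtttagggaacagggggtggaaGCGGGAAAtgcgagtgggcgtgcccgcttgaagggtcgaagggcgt
Fanca, chr8:123318577-123318826, minus strand: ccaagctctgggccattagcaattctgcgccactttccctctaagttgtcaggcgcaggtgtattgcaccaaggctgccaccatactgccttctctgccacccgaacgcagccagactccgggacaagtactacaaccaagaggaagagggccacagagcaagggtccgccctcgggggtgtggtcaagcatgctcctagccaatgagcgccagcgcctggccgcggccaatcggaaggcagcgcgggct
All 5 matches were of TTTCCCGC, read forward in Bard1 (first base 209 bases before the start) and Fancg (52 bases) and as its reverse complement in Brca2 (168 bases), Chek2 (152 bases) and Xrcc6 (46 bases). The genes with a match had log2 fold changes from −0.45 (Rad51c) to 0.40 (Bard1). Of the 5 genes with an unadjusted p under 0.05 in the edgeR test, Fancd2 had no window, and Fanca, Fanci, Brca1 and Blm had no match. These are too few genes to relate the words to the fold changes. A match is a string of letters and was not tested as a binding site.

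Within the Fanconi pathway, Fanca and the genes for the ubiquitinated clamp had the highest fold changes. Fanca, a scaffold subunit of the core complex (chromosome 8, 123268244 to 123318576, mm10), had GFP-HI values of 17.2, 18.8, 9.32, 9.51, 7.5 and 9.99 CPM (B1M, B3M, B4M, B5M, B7F, B7M), whereas their GFP-LO values were 3.89, 6.10, 5.06, 10.1, 4.34 and 5.67 CPM. GFP-HI was higher in every mouse but B5M, B1M and B3M were highest in GFP-HI, and the GFP-LO library of B5M lay inside the GFP-HI range. The log2 fold change was 1.02 ± 0.31 (SE, n = 6; 95% interval 0.36 to 1.69; edgeR adjusted p = 0.33), 0.81 without B1M, and 0.58 without B1M and B3M. Zfp276, which shares bases with it, had −0.09 (adjusted p = 0.96). Fancd2, a subunit of the ubiquitinated clamp, ranged from 11 to 21.7 CPM in GFP-HI (median 15) and from 6.46 to 17.3 CPM in GFP-LO (median 8.77). It was higher in GFP-HI in 6 of 6 mice, barely so in B5M (17.9 against 17.3 CPM), with log2 0.67 ± 0.22 (SE, n = 6; interval 0.20 to 1.14; edgeR adjusted p = 0.43).

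Fanci, the partner of Fancd2, had 51.5, 27.2, 16.7, 20.3, 17.6 and 27.8 CPM in GFP-HI in the same order of mice and 12.1, 15.8, 16.2, 21.0, 15.3 and 19.4 CPM in GFP-LO. B1M alone was far above the rest, and in B4M and B5M the fractions were within 1 CPM of each other. Its log2 fold change of 0.59 ± 0.25 (SE, n = 6; edgeR adjusted p = 0.65) was 0.31 without B1M. Fancl, the ubiquitin ligase of the core complex, went the other way, with 10.8 to 17.6 CPM in GFP-HI (median 11.4) and 13.7 to 18.9 CPM in GFP-LO (median 16.0), lower in 5 of 6 mice (log2 −0.34, interval −0.75 to 0.07; adjusted p = 0.75). The other subunits had values between −0.15 and 0.26. Fancc had log2 0.26, Fance 0.08, Fancg 0.07, the fork-remodelling translocase Fancm −0.13 and Fancf −0.15, with adjusted p of 0.89 to 0.98. Without B1M, Fancc had 0.51, Fancg 0.33, Fance −0.02 and Fancf 0.34. Fancf, an adaptor subunit, had few reads, at no more than 18 counts in any library and 0 in the GFP-HI library of B1M, where a count of 0 allows up to 3 counts, and its interval ran from −1.76 to 1.46.

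**Figure D4:**
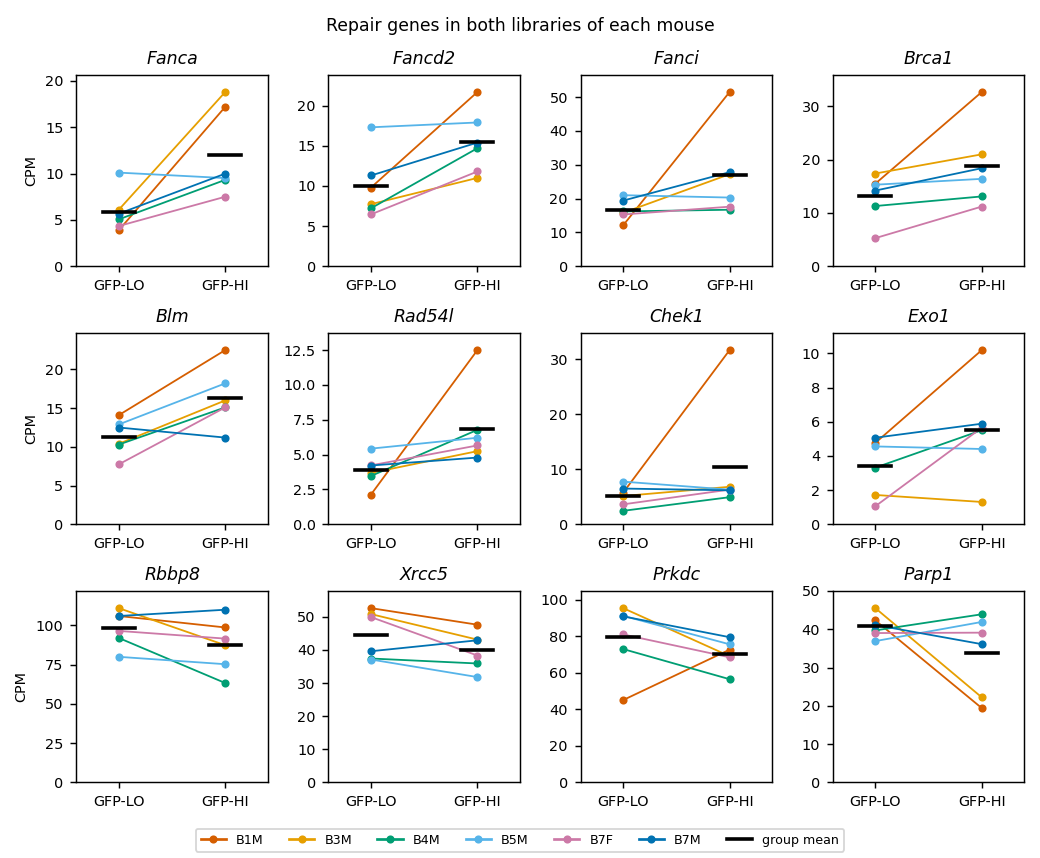
CPM (vertical axis, from 0) of 12 repair genes in the GFP-LO and GFP-HI library of each mouse, joined by a line per mouse, with black bars for the group means. B1M gives the steepest line for Fanci, Rad54l and Chek1, all lines slope upward for Fancd2, Brca1 and Rad54l, and 5 of 6 downward for Rbbp8, Xrcc5 and Prkdc.

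In homologous recombination the largest positive fold changes were those of Rad54l, Rad51b, Blm and Brca1. Brca1, a ubiquitin ligase that promotes resection, had 32.7, 21.0, 13.1, 16.4, 11.2 and 18.4 CPM in GFP-HI and 15.5, 17.4, 11.3, 15.3, 5.28 and 14.2 CPM in GFP-LO (B1M, B3M, B4M, B5M, B7F, B7M). It was higher in 6 of 6 mice, most in B1M and B7F, while the group ranges overlapped (log2 0.51 ± 0.20 SE, n = 6; edgeR adjusted p = 0.61). Leaving out B1M gave Brca1 a log2 fold change of 0.39. Bard1, its obligate partner, had log2 0.40, higher in 5 of 6 mice (adjusted p = 0.78), and 0.18 without B1M. Brip1, a helicase bound to Brca1, had 4.18 CPM in the GFP-HI library of B1M and 12.3 CPM or more in the other mice, up to 31.1 CPM, against 9.30 to 20.3 CPM in GFP-LO (log2 0.40; adjusted p = 0.80). Without B1M its log2 fold change was 0.67, with the smallest adjusted p of the repair genes in that fit (0.23). Palb2, the bridge from Brca1 to Brca2, had log2 0.21 (0.41 without B1M) and at most 50 counts in a library. Brca2, which loads the recombinase, had 14.2 to 46.1 CPM in GFP-HI (GFP-LO 14.7 to 31.7 CPM). The fractions were split 3 mice to 3, and the log2 fold change of 0.24 was 0.01 without B1M.

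Blm, the helicase mutated in Bloom syndrome, had 11.2 to 22.5 CPM in GFP-HI (median 15.6) and 7.75 to 14.1 CPM in GFP-LO (median 11.5). It was higher in every mouse but B7M, by log2 0.52 ± 0.20 (SE, n = 6; interval 0.09 to 0.96; edgeR adjusted p = 0.61), and by 0.49 without B1M. Its relative Wrn, of Werner syndrome, had 23.3 to 35.6 CPM and 23.5 to 35.0 CPM, nearly the same range, with log2 0.10 and an interval of −0.18 to 0.38. Rad54l, a translocase that helps strand invasion, had 12.5 CPM in the GFP-HI library of B1M and 4.79 to 6.78 CPM in the others, against 2.14 to 5.43 CPM in GFP-LO. It was higher in 6 of 6 mice (log2 0.77, interval −0.09 to 1.63; adjusted p = 0.72), with 0.45 without B1M. Its relative Rad54b had 0.11, or 0.30 without B1M. Across all repair genes, 3 of 43 were higher in GFP-HI in 6 of 6 mice (6.98%), Fancd2, Brca1 and Rad54l, while 3.3% of all genes tested were, and 0 were lower in all 6, against 2.6%. No repair gene had groups that did not overlap, against 0.0683% of all genes with GFP-HI wholly above and 0.128% wholly below.

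Rbbp8, which starts resection with the Mre11a complex, had the narrowest interval of the recombination genes. It stood at 63.3 to 110 CPM in GFP-HI (median 89.5) and 80.0 to 111 CPM in GFP-LO (median 101), lower in every mouse but B7M, and the log2 fold change of −0.18 had an interval of −0.38 to 0.02 (adjusted p = 0.74). The 5 recombinase paralogs, which stabilise the recombinase filament, pointed in both directions, with log2 0.58 for Rad51b, 0.24 for Xrcc2, −0.18 for Xrcc3, −0.34 for Rad51d and −0.45 for Rad51c (adjusted p of 0.79 to 0.97). Without B1M, Xrcc2 had 0.56, Xrcc3 0.19 and Rad51c −0.11, and without B1M and B3M, where Rad51c had 3 and 10 GFP-HI counts, Rad51c had 0.16. They were low genes, and their summed level in GFP-HI ran from 5.03 CPM in B1M to 43.7 CPM in B3M, against 12.1 to 26.8 CPM in GFP-LO. Rad51b drew most on one library, 22.3 CPM in the GFP-HI library of B3M with 1.96 to 10.4 CPM in the others. Rad51ap1, an accessory factor of the recombinase, had 0 counts in the GFP-HI library of B1M and log2 −0.33, with an interval of −1.83 to 1.17, or 0.02 without B1M.

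In end joining, the genes for Ku and its kinase had log2 fold changes slightly below 0 that did not pass the test. Xrcc5, of the Ku heterodimer that caps broken ends (chromosome 1, 72307421 to 72394953), had 47.6, 43.1, 35.9, 31.8, 38.3 and 42.9 CPM in GFP-HI and 52.6, 50.8, 37.4, 37.1, 49.9 and 39.6 CPM in GFP-LO, lower in every mouse but B7M. The log2 fold change was −0.15 ± 0.11 (SE, n = 6; interval −0.40 to 0.09; edgeR adjusted p = 0.81). Xrcc6, its partner, had 7.35 to 16.1 CPM and 11.1 to 19.5 CPM, lower in 4 of 6 mice (log2 −0.17; adjusted p = 0.89). Prkdc, the catalytic subunit of the kinase that Ku recruits, had 56.5 to 79.5 CPM in GFP-HI (GFP-LO 45.1 to 95.4 CPM). It was lower in GFP-HI in 5 mice and higher in B1M (72.7 against 45.1 CPM), with log2 −0.15 over all mice (interval −0.44 to 0.14; adjusted p = 0.85) and −0.31 without B1M (adjusted p = 0.23).

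The ligation genes were lower in level and less certain. Xrcc4, the scaffold of the ligase, had 6.83 to 9.48 CPM in GFP-HI (GFP-LO 2.71 to 11.1 CPM), higher in every mouse but B7M (log2 0.45; adjusted p = 0.80). Lig4, the ligase itself, had 1.58 to 7.25 CPM and 3.39 to 6.61 CPM, split 3 mice to 3 (log2 −0.44, interval −1.50 to 0.62; adjusted p = 0.87), with −0.74 without B1M. Polq, the polymerase of the alternative route that uses short matching stretches at the ends, had 3.19 to 11.3 CPM and 4.70 to 11.1 CPM and a log2 fold change of 0.02 (interval −0.74 to 0.78), or 0.34 without B1M.

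Of the mismatch repair genes, Msh6, a subunit of the mismatch sensor, was even across libraries except for 1. It had 34.2 to 44.6 CPM in 5 GFP-HI libraries, 15.5 CPM in that of B1M, and 33.4 to 42.5 CPM in GFP-LO, and its log2 fold change was −0.11 (interval −0.47 to 0.25; adjusted p = 0.91) and 0.07 without B1M. Pms2, the endonuclease subunit that nicks the new strand, had 29.3 CPM in the GFP-HI library of B1M, 4.59 to 10 CPM in the others and 4.19 to 9.62 CPM in GFP-LO, with log2 0.19, or −0.13 without B1M. Exo1, the exonuclease that removes the faulty stretch and also resects breaks, had 1.31 to 10.2 CPM and 1.06 to 5.07 CPM, higher in 4 of 6 mice (log2 0.65, interval −0.31 to 1.60; adjusted p = 0.80).

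Among the sensors and kinases that detect breaks, Atr had the steadiest level and Chek1 the least steady of all 43 genes. Atr, the kinase of stalled forks, had 29.9 to 37.4 CPM in GFP-HI (GFP-LO 27.2 to 38.9 CPM), and its coefficient of variation over the 12 libraries, 10.5%, was the smallest of the 43 genes (median 37.9%, beside 29.4% over all genes tested). Its log2 fold change of 0.02 had an interval of −0.25 to 0.29. Atm, the kinase of broken ends, had 28.2 CPM in the GFP-HI library of B1M, at most 68.4 CPM in the other GFP-HI libraries and 53.9 to 66 CPM in GFP-LO. Its log2 fold change of −0.16 (interval −0.46 to 0.13) was 0.00 without B1M, and in the other mice the fractions differed by −0.09 to 0.05. The genes of the end-binding complex, Mre11a, Rad50 and Nbn, had −0.12, −0.08 and −0.06, each with an interval inside 0.5 on either side of 0, and Rad50 had 0.06 without B1M. Mre11a had 11.3 to 21.7 CPM in GFP-HI (GFP-LO 16 to 21.1 CPM), and Nbn, the most abundant of the class by RPKM, 19.1 to 29.8 CPM (GFP-LO 20 to 28.8 CPM). Chek2, the effector kinase of Atm, had 6.04 to 15.7 CPM in GFP-HI (GFP-LO 7.22 to 11.1 CPM), higher in 5 of 6 mice (log2 0.19; adjusted p = 0.89).

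Chek1, the effector kinase of Atr, was the most variable gene of the group, with a coefficient of variation of 98.2%. Its GFP-HI values were 31.7, 6.83, 4.94, 6.31, 6.32 and 6.19 CPM and its GFP-LO values 5.78, 5.15, 2.46, 7.77, 3.64 and 6.51 CPM (B1M, B3M, B4M, B5M, B7F, B7M). A single library, GFP-HI of B1M, stood apart, and the rest of GFP-HI lay inside the range of GFP-LO. The log2 fold change of 0.69 (interval −0.10 to 1.48; edgeR adjusted p = 0.74) was 0.34 without B1M. In single-strand break repair, Parp1, which marks nicks with chains of ADP-ribose, had GFP-HI values of 19.4 CPM in B1M and 22.2 CPM in B3M, up to 43.9 CPM in the others, and 36.9 to 45.5 CPM in GFP-LO (log2 −0.33, interval −0.73 to 0.08). Its value was −0.17 without B1M and 0.03 without B1M and B3M. Xrcc1, the scaffold that gathers the repair enzymes, had 8.43 to 20.1 CPM and 7.91 to 14.0 CPM (log2 0.17, or 0.11 without B1M; adjusted p = 0.89).

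**Figure D5:**
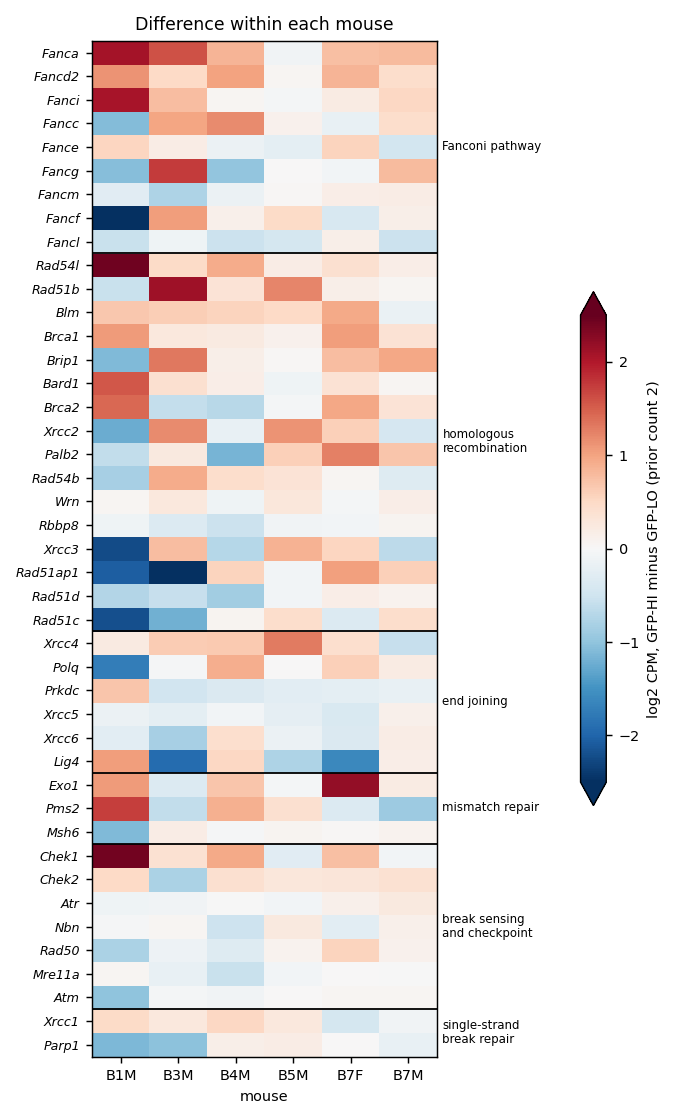
Difference in log2 CPM between GFP-HI and GFP-LO (prior count 2) for each repair gene (rows, grouped by class) in each mouse (columns), red for higher in GFP-HI and blue for lower, with colours saturated at 2.5. B1M holds most of the strongest colours in both directions, B5M and B7M are mostly pale, and the rows of Atr, Wrn, Mre11a and Rbbp8 are pale throughout.

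Mouse by mouse, the median difference over the 43 genes was −0.11, 0.18, 0.13, 0.03, 0.16 and 0.13 on the log2 scale (B1M, B3M, B4M, B5M, B7F, B7M), beside −0.03 to 0.01 over all genes tested. For the clamp genes Fancd2 and Fanci together it was 1.60, 0.64, 0.52, 0.00, 0.53 and 0.47 in the same order. The GFP-LO library of B5M had the highest GFP-LO value for 30.2% of the repair genes, against 15.7% of all genes tested. Cell cycle genes were looked up in the same libraries. Of 16 S phase genes 0 were called, 15 had positive values and the median was 0.37, with summed levels of 370 to 617 CPM in GFP-HI (GFP-LO 259 to 426 CPM). Of 16 mitosis genes 1 was called higher, Top2a (log2 0.48; adjusted p = 0.019), Mki67 had 0.37 (adjusted p = 0.097), 15 had positive values and the median was 0.33. Of all genes tested, 0.469% were called higher, 0.0597% were called lower and 46.9% had positive values. In B5M, where the clamp genes and Brca1 differed least, the mitosis sum was 2187 CPM in GFP-HI (GFP-LO 2241 CPM), and it was the only mouse in which GFP-HI was lower. The S phase sum in B5M was 480 CPM in GFP-HI (GFP-LO 411 CPM), and it was higher in GFP-HI in 6 of 6 mice. The part of cell cycle stage in the repair values was not tested.

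How much change the data could have hidden differs by gene. For 26 of the 43 genes (60.5%) the 95% interval lay within 1 on either side of 0 on the log2 scale, a 2-fold change, compared with 71.4% of all genes tested. For 10 (23.3%, against 34.9%) it lay within 0.5, or 1.41-fold. Those 10 hold Xrcc5, Prkdc, Rbbp8, Wrn, Msh6, Atm, Atr, Mre11a, Rad50 and Nbn, so that for these a difference of that size is outside the interval. For every gene outside the 26, the interval reached a 2-fold change or more in at least 1 direction. Among them were Fancf, Rad51ap1, Xrcc3, Rad51c and Lig4, with negative values, and Fanca, Rad54l, Exo1, Chek1 and Rad51b, with positive values.

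Other genes of the same pathways, 49 by list, were looked up for comparison, and 48 were tested, all but Rmi2. None was called by edgeR in either direction, against 0.469% of all genes tested called higher and 0.0597% called lower. At an unadjusted p under 0.05, 8 of the 48 had higher and 0 lower values, beside 5 and 0 of the 43 genes. Of all genes tested, 4.3% had higher and 2.94% lower values at that threshold. The median log2 fold change was 0.05, with 28 positive (58.3%) and 20 negative, where 46.9% of all genes tested were positive. By class, the median of these other genes was 0.05 for the Fanconi pathway, 0.09 for recombination and −0.01 for end joining. Their summed CPM was higher in GFP-HI in 4, 4 and 3 of 6 mice. Mismatch repair had a median of 0.26, break sensing 0.08 and single-strand break repair −0.02. H2afx, the histone that is phosphorylated at breaks, had the smallest p, with a value higher in 6 of 6 mice (log2 0.43 ± 0.10 SE, n = 6; edgeR adjusted p = 0.11), and it was the 1 gene of this list that DESeq2 called. Topbp1, an activator of Atr, had 0.26, also higher in 6 of 6 mice (adjusted p = 0.57). In recombination, the junction-cutting nuclease Gen1 had 0.74 and Rad52, an annealing factor, 0.57 (adjusted p = 0.61 and 0.64). In end joining, Aplf, a scaffold that binds Ku, had 0.54, and Trp53bp1, which protects ends from resection, −0.13 (adjusted p = 0.60 and 0.85). Lig1 and Pcna, which also serve replication, had 0.39 and 0.26 (adjusted p = 0.66 and 0.68). The crosslink repair genes Slx4 and Fan1 had −0.39 and 0.23, and the single-strand repair gene Lig3 had −0.35 (adjusted p of 0.77 to 0.91).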

How the data were processed

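The authors deposited raw, whole-number gene counts for 12 libraries of sorted palatal basal cells in 1 table. Per the submitters' processing notes, which give no roles, the tools were featureCounts, DESeq2, R 3.4.1, FastQC and bcl2fastq 2.20.0 and the build mm10 (GRCm38). The file headers give exon intervals and exonic length per gene. For the aligner, the annotation release and the strand setting, each is not given in the sources used here. All 12 count columns matched a library by title. The 43 genes and every list were chosen with earlier results of these data known.

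Counts were fitted in R 4.3.3 with edgeR 4.0.16: genes filtered by group (minimum count 10, minimum total 15), TMM scaling, and the robust quasi-likelihood test, two-sided, with mouse as a block and Benjamini-Hochberg adjustment over 11719 genes. The code in the titles ties both libraries to 1 animal. Deviations from the group means correlated at 0.225 to 0.494 within a mouse, above 0.1 in all 6, so the replicate block was kept. CPM use TMM-scaled totals that include Rn45s, and differences within a mouse use log2 CPM with a prior count of 2. A count of 0 allows up to 3 counts, or 0.258 to 0.433 CPM, which covers counting error alone, and whether molecular identifiers were used is not given in the sources used here. Alternatives were DESeq2 1.42.0, other scalings and filters, and fits without single mice. Every repair gene is named with its fitted value, with levels over the mice for the 4 of each class with the smallest p and the most abundant by RPKM. Levels of others were added after they were seen. Other repair genes are the 2 per class with the smallest p, of which 1 is not reported here.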

Additional observations from a re-analysis of the deposited data

Results flagged for a closer look

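In 10 of the 86 sets of 6 libraries (43 genes in 2 groups) 1 library stood far from the rest. The measure was Dixon's test of the gap over the range, where chance alone gives about 5% of sets with normally distributed values. The share of such sets over all genes tested was not computed, so the 10 cannot be called particular to the repair genes. The GFP-HI library of B1M accounted for 5 of the 10. It was high for Fanci (51.5 CPM, others 16.7 to 27.8), Rad54l (12.5 CPM, others 4.79 to 6.78), Pms2 (29.3 CPM, others 4.59 to 10) and Chek1 (31.7 CPM, others 4.94 to 6.83), and low for Msh6 (15.5 CPM, others 34.2 to 44.6). In GFP-HI, Fancg was high in B3M (8.93 CPM, others 1.96 to 4.21) and Rad54b in B5M (10.3 CPM, others 4.69 to 5.37). In GFP-LO, B5M was high for Fanca (10.1 CPM, others 3.89 to 6.10) and Msh6 (42.5 CPM, others 33.4 to 36.6), and B1M for Xrcc6 (19.5 CPM, others 11.1 to 13.3).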

How the results depend on the processing

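None of the 43 repair genes was called in any of the 15 alternative fits (smallest adjusted p 0.10, Fanca in DESeq2), and Fanca and Fancd2 had an unadjusted p under 0.05 in each. Without the replicate block, 0 genes of the whole table were called higher and 0 lower, against 55 and 7 with it, and the median of all genes was 0.02. DESeq2 called 112 higher and 25 lower (1 of the other repair genes, H2afx), the fit without a count filter 127 and 45, the fit without Rn45s and histone genes 6 and 3, and the fit without B1M and B3M 117 and 34. Leaving out 1 mouse gave 29 to 81 higher and 2 to 14 lower. Upper-quartile factors moved the median of all genes to −0.04. The median of break sensing was −0.12 to 0.05 without 1 mouse and 0.08 without B1M and B3M. The cause was not tested.

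Some uncalled genes changed sign. Without the block this held for Fancf (0.07), Rad51ap1 (0.10) and Xrcc3 (0.13), and with upper-quartile factors for Atr (−0.01) and Polq (−0.01). Without B1M and B3M it held for Atm (0.01), Fance (−0.08), Fancf (0.11), Fancg (−0.08), Fancm (0.06), Msh6 (0.04), Parp1 (0.03), Pms2 (−0.01), Rad50 (0.11), Rad51ap1 (0.54), Rad51c (0.16), Xrcc3 (0.02) and Xrcc6 (0.03). Leaving out 1 mouse at a time gave Atr −0.03 to 0.05, Fance −0.02 to 0.19, Fancf −0.43 to 0.34, Fancg −0.28 to 0.33, Msh6 −0.17 to 0.07, Nbn −0.12 to 0.03, Palb2 −0.03 to 0.47, Pms2 −0.13 to 0.42, Polq −0.17 to 0.34, Rad50 −0.21 to 0.06, Rad51ap1 −0.70 to 0.18, Rad54b −0.06 to 0.30 and Xrcc3 −0.47 to 0.19. Low counts limit Fancf, Xrcc3, Palb2, Rad51ap1 and Rad51c, with at most 50 counts in a library.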

Other observations

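The more abundant repair genes had negative values and most of the less abundant ones positive values, a split noticed after the values were seen and not tested. Of the 7 genes at or above the median RPKM of all genes tested, 0 had a positive log2 fold change (median −0.15), and of the 36 below it 25 had one (69.4%, median 0.18). Over all genes tested the shares were 50.4% and 43.5%. The split drew in part on single mice, since Msh6 and Rad50 had positive values without B1M, and Parp1 without B1M and B3M.

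Further words were searched in the windows at the gene starts, on both strands. CCAAT was in 63.6% of the 33 repair genes with a window and 47.5% of the other repair genes. It was in 75.0% of the S phase genes, 92.3% of the mitosis genes and 43.1% of tested genes. TTTGAA or TTCGAA, the core of the CHR element of mitotic genes, was in 12.1%, 12.5%, 25.0%, 76.9% and 16.0% in the same order.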
